A study of Bos taurus with 12 samples.

Results

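The 6 genes described here are STAR, SCP2, CYP11A1, FDXR and HSD3B1, which act between cholesterol and progesterone, and CYP21A2, an enzyme that uses progesterone as a substrate. They were taken by gene name from an Agilent bovine oligonucleotide array, on which each had exactly 1 probe, so that they make up 6 of the 6629 genes named on the array and 6 of its 15208 probes that are not controls. HSD3B1 is listed under the name HSD3B and was identified through its RefSeq accession. The array measured corpus luteum, the ovarian gland left after ovulation, in 3 groups of Japanese-Black cows with 4 animals in each. NP15 stands for cyclic animals 15 days into their estrous cycle, and P15 and P18 for pregnant animals 15 and 18 days into gestation, where insemination fell on day 1. The glands were taken 10 to 30 min after exsanguination, and 400 ng of total RNA per gland was labelled with the dye Cy3. The title of the study names CYP21A2 as a gene whose luteal expression changes with pregnancy.

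In the corpus luteum, cholesterol is carried to the inner mitochondrial membrane by the STAR protein and is cut there to pregnenolone by CYP11A1, the side-chain cleavage enzyme. CYP11A1 draws its electrons from NADPH through FDXR and the small iron-sulfur protein FDX1, and HSD3B1 then turns pregnenolone into progesterone, the hormone that maintains pregnancy. SCP2 is a lipid carrier that binds sterols. CYP21A2 converts progesterone to deoxycorticosterone and is best known as an enzyme of the adrenal cortex.

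Each value below rests on a single 60-base probe, so the probe sequences of 5 of the genes are shown, in the orientation given on the array. Capitals mark the longest run that the probe shares with any of the 15207 other probes on either strand.
STAR: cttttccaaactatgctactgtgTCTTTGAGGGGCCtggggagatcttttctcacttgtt
SCP2: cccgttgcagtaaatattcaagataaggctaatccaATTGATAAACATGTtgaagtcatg
CYP11A1: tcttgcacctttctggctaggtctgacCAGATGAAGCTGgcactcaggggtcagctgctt
HSD3B1: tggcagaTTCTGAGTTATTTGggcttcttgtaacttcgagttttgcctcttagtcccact
CYP21A2: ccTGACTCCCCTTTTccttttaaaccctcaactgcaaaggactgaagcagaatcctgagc
The shared runs were 12 bases in CYP11A1, 13 in STAR and CYP21A2 and 14 in SCP2 and HSD3B1. None of these runs was longer than 14 of the 60 bases. Their positions in the genome were not determined here.

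Levels are given as the log2 of the processed spot signal minus the log2 of that array's 75th percentile, and changes are differences between group means on that scale, with limma's standard error (SE) and a Benjamini-Hochberg adjusted p over the 12605 probes tested. A gene was called changed where the adjusted p was under 0.05. All 6 probes were well above background on all 12 arrays. NP15 arrays had 75th percentiles between 2868 and 4183, P15 arrays between 2649 and 3773 and P18 arrays between 2999.7 and 3558. Of all probes, 79.6% to 85.6% stood well above background on NP15 arrays, 75.3% to 80.5% on P15 arrays and 67.5% to 72.6% on P18 arrays. The NP15 and P15 arrays lay on slide 1, each group in its own row of the slide, and the P18 arrays lay on slide 2, scanned apart. Group and slide row cannot be told apart in P15 against NP15, and gestation day or pregnancy and slide cannot be told apart in either comparison of P18. NP15 replicate 4 stood somewhat apart, with a mean correlation of 0.964 to the other NP15 arrays against 0.981 to 0.982 for those. The luteal marker list (LHCGR, OXT, INHA, PRLR, SCARB1, PTGFR, FDX1 and TIMP1) was well above background on every array for 8 of 8 genes. In whole tissue, fewer cells of a type and less RNA per cell cannot be told apart.

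Both ends of the measuring range and the place of a probe on the array touch these genes. The STAR spot was saturated on all 4 NP15 and all 4 P15 arrays, and the HSD3B1 spot was saturated on all 4 NP15 arrays. Only 8 of the 15208 probes were saturated on any array. A saturated level is a lower bound, so changes called against such a group are given as "at least". This allows for clipping only, and not for drift across the array, the choice of scaling or sampling. The bound is the mean of the recorded values of the bright group over that of the other group. Values also drifted towards the edges of the array: in P15 against NP15 the median change of the other probes was -0.71 in the last row, row 192, which holds HSD3B1, and -0.65 in row 191, which holds CYP21A2. It was -0.046 over rows 25 to 168. FDXR lies in row 186 and SCP2 in row 4, while STAR in row 53 and CYP11A1 in row 121 lie inside. Changes are therefore also given after subtracting, on each array, the median deviation of the probes of the same row (row adjustment).

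**Figure D1:**
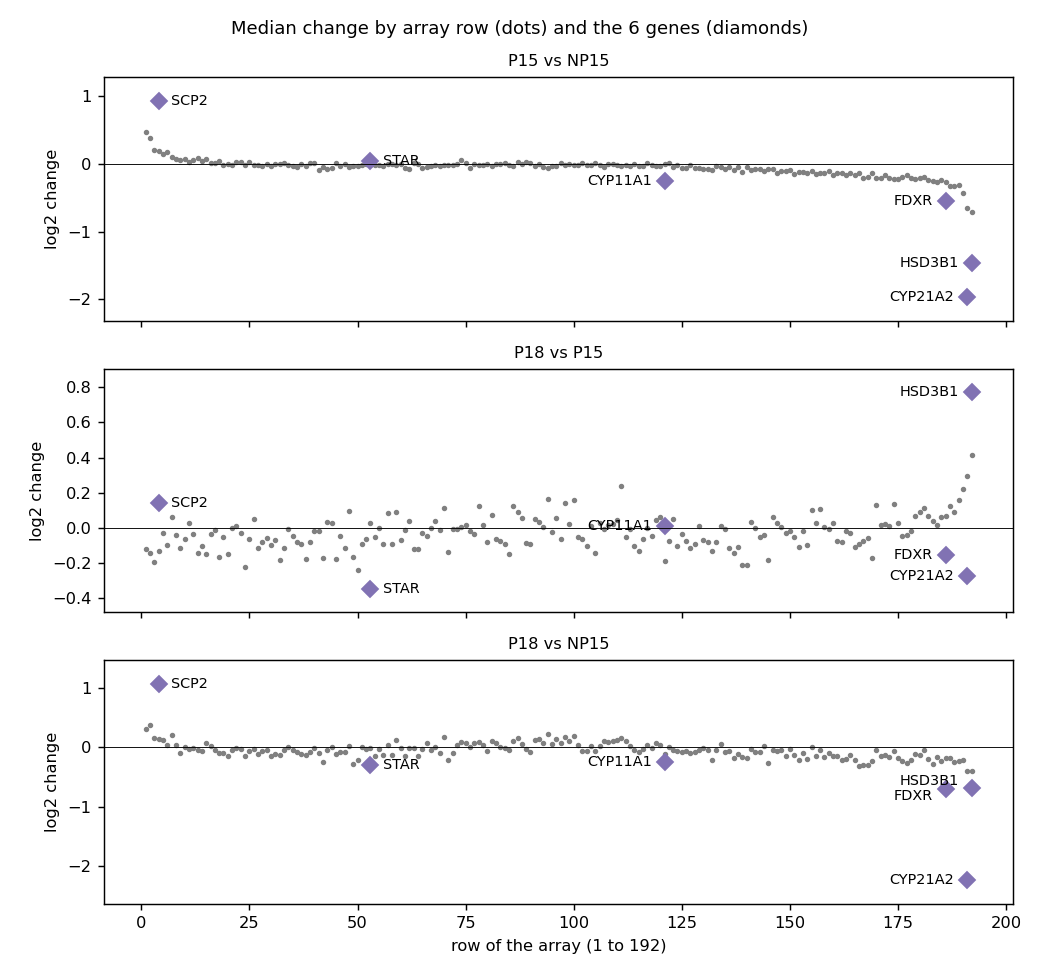
Median log2 change of the probes of each array row (dots, rows 1 to 192) and the change of the 6 genes (diamonds) in the 3 comparisons. The row medians drop to -0.72 at row 192 in P15 vs NP15 and rise to 0.42 there in P18 vs P15; HSD3B1 and CYP21A2 lie at that edge.

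In pregnant against cyclic glands on day 15, HSD3B1 was the 1 gene of 6 that was called, and it fell. Of all probes tested, 0.976% were called in that comparison, 0.397% higher and 0.579% lower. Values of the groups did not overlap for HSD3B1, SCP2 and CYP21A2, 3 of 6 genes beside 6.54% of all probes. From day 15 to day 18 of gestation 1 gene of 6 was called, again HSD3B1, which rose, beside 29% of all probes, 13.5% higher and 15.6% lower. Here HSD3B1 and STAR, 2 of 6 genes, had groups that did not overlap, beside 35.2% of all probes. Between P18 and NP15, SCP2 rose and HSD3B1, FDXR and CYP21A2 fell, which makes 4 of 6 beside 29.9% of all probes, 11.2% higher and 18.7% lower. The same 4 genes had groups that did not overlap, beside 30.9% of all probes. STAR and CYP11A1 were called in none of the 3 comparisons. The 3 comparisons share arrays in pairs, so their results are not independent of each other. After row adjustment the counts were 0, 0 and 1, the last being SCP2. Without NP15 replicate 4 the counts were 1, 1 and 4, with changes in P18 against NP15 of 1.09 for SCP2, -0.83 for FDXR, -0.61 for HSD3B1 and -2.63 for CYP21A2.

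**Figure D2:**
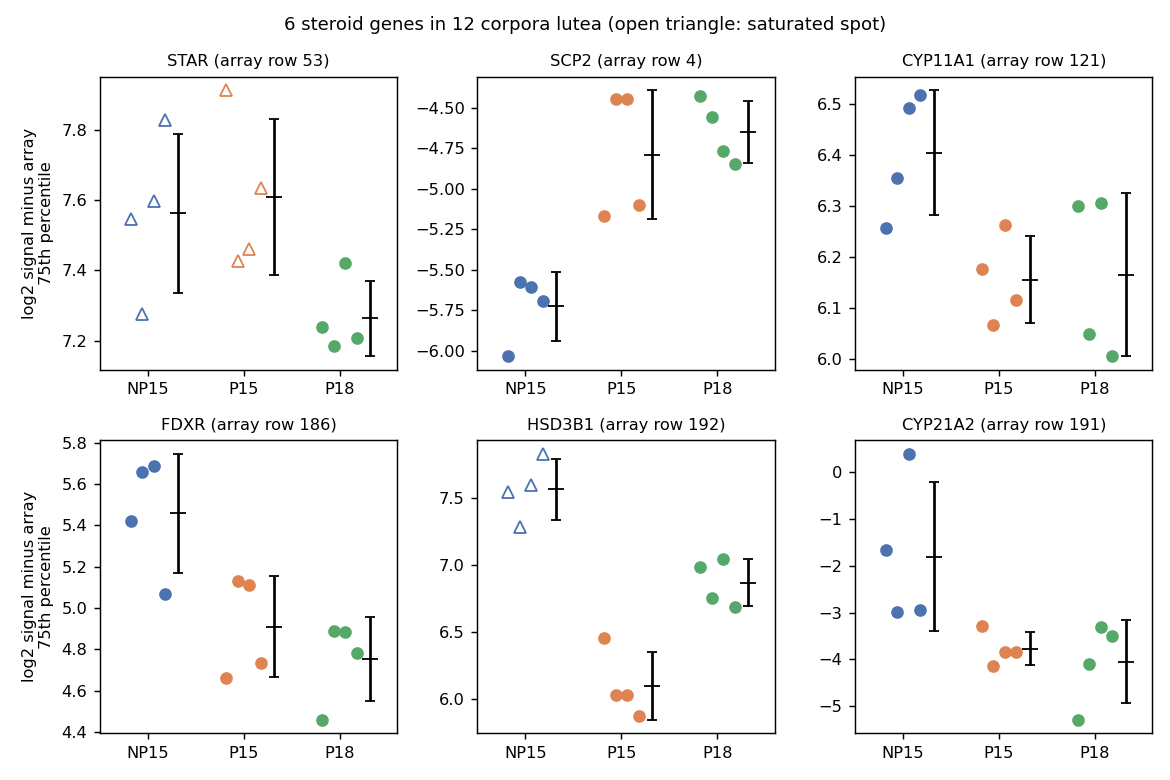
Level of each gene (log2 signal minus the array's 75th percentile) on the 12 arrays, with 4 animals a group; filled circles are measured values, open triangles saturated spots, and black bars the group mean ± SD. HSD3B1 in P15 (5.87 to 6.46) lies below both other groups, and CYP21A2 in NP15 spreads from -2.997 to 0.39.

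STAR, which delivers cholesterol to CYP11A1, showed no called change. Its recorded levels were 7.55, 7.28, 7.60 and 7.83 on NP15 arrays 1 to 4, 7.91, 7.43, 7.46 and 7.64 in P15, and 7.24, 7.19, 7.42 and 7.21 in P18. All 8 values of the day 15 groups came from saturated spots, whose signals lay between 638544 and 652191, so those groups have no order among themselves. The spread in NP15 (SD 0.23) matched that of the log2 75th percentile of the same arrays (SD 0.22), by which each clipped signal was divided. The 4 P18 signals, 473347 to 536260, were below saturation. All 4 P18 levels lay under all P15 levels, and 3 of 4 lay under all NP15 levels. On the recorded values STAR was 1.27-fold lower in P18 than in P15 (log2 change -0.35, SE 0.14, adjusted p = 0.0929). Against NP15 it was 1.23-fold lower (-0.30, SE 0.14, adjusted p = 0.139), with a 95% interval of -0.61 to 0.014. Neither change was called. On each P18 array 0 probes were saturated, against 2 to 7 on each array of slide 1, and STAR still ranked 1 or 2 in signal on the P18 arrays. With cyclic loess scaling both changes passed the threshold (-0.52, adjusted p = 0.00696, and -0.42, adjusted p = 0.0203). With quantile scaling they turned to 0.022 and 0.043. Clipping in the brighter group can only hide a larger difference, so these values set no upper limit on the STAR difference. With neither change called, they set no lower limit either.

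SCP2, the sterol carrier, had its lowest levels in cyclic glands. Its levels were -6.03, -5.57, -5.60 and -5.69 in NP15, -5.17, -4.45, -4.45 and -5.10 in P15, and -4.43, -4.56, -4.77 and -4.85 in P18. Every value of both pregnant groups lay above every NP15 value, while P15 and P18 overlapped. SCP2 rose in P18 over NP15 by 1.08 (SE 0.19, adjusted p = 0.00185), a 2.11-fold difference. With normexp background correction and an offset of 50 that change was 0.63 (adjusted p = 0.00215). In P15 over NP15 the change was 0.93 (SE 0.19, adjusted p = 0.0503), 1.91-fold, which missed the threshold. With normexp it was 0.46 (adjusted p = 0.164). Of the 12 fits that left out 1 array, 1 called it, that without P15 replicate 1 (1.06, adjusted p = 0.0385). Over those fits it ran down to 0.82, with adjusted p up to 0.155. The change from P15 to P18 was 0.14 (95% interval -0.28 to 0.56, adjusted p = 0.628).

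The SCP2 spot was dim, with processed signals between 53.2 and 87.9 on NP15 arrays, between 73.8 and 172.8 on P15 arrays and between 110.1 and 164.7 on P18 arrays. The lowest signal that counted as well above background lay at 14.2 to 17.7 on the NP15 arrays, at 17.3 to 35.3 on the P15 arrays and at 52.4 to 78.1 on the P18 arrays. The part of that higher floor in the SCP2 change was not tested. Row 4 moved by a median of 0.19 in P15 against NP15 and 0.13 in P18 against NP15, and SCP2 lay above 52 and 53 of the 57 other probes of the row. After row adjustment SCP2 still rose in P18 over NP15 by 0.98 (adjusted p = 0.00336). The row-adjusted change in P15 over NP15 was 0.69 (adjusted p = 0.403).

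CYP11A1, the side-chain cleavage enzyme, varied little within groups. Its levels were 6.26, 6.35, 6.49 and 6.52 in NP15, 6.18, 6.07, 6.26 and 6.12 in P15, and 6.30, 6.05, 6.31 and 6.01 in P18. The groups overlapped in every comparison. The mean was 6.41 ± 0.12 (SD, n = 4) in NP15 against 6.16 ± 0.085 in P15 and 6.17 ± 0.16 in P18. The changes were -0.25 in P15 against NP15 (SE 0.11, adjusted p = 0.525), -0.24 in P18 against NP15 (SE 0.11, adjusted p = 0.118) and 0.0096 in P18 against P15 (adjusted p = 0.961). The 95% interval of the last ran from -0.23 to 0.25. With cyclic loess scaling the change of P18 against NP15 was -0.36 and passed the threshold (adjusted p = 0.0163), and after row adjustment it was -0.020.

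FDXR, the reductase that feeds electrons towards CYP11A1, was highest in cyclic glands. Its levels were 5.42, 5.66, 5.69 and 5.07 in NP15, 4.66, 5.13, 5.11 and 4.74 in P15, and 4.46, 4.89, 4.88 and 4.78 in P18. All P18 values lay below all NP15 values, and NP15 replicate 4 lay under P15 replicates 2 and 3. FDXR fell by 0.70 in P18 against NP15 (SE 0.17, adjusted p = 0.0104), a 1.63-fold difference. The change in P15 against NP15 was -0.55 (SE 0.17, adjusted p = 0.280), or -0.68 without NP15 replicate 4 (adjusted p = 0.102). P18 and P15 differed by -0.16 (95% interval -0.54 to 0.22, adjusted p = 0.539). The 62 other probes of row 186 had a median change of -0.16 in P18 against NP15. After row adjustment the FDXR change was -0.58 (adjusted p = 0.0536), with local position adjustment it was -0.42 (adjusted p = 0.129), and with median centring, which raised the median of all probes by 0.24, it was -0.47 (adjusted p = 0.0726).

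FDX1, the direct electron partner between FDXR and CYP11A1, lies in row 34 and was not called. Its changes were -0.11 in P15 against NP15 (adjusted p = 0.897), -0.12 in P18 against NP15 (adjusted p = 0.683) and -0.0035 in P18 against P15 (adjusted p = 0.992).

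HSD3B1, the enzyme that forms progesterone, had its lowest levels in day 15 pregnant glands. Its recorded levels were 7.55, 7.28, 7.60 and 7.83 in NP15, where every spot was saturated, 6.46, 6.03, 6.03 and 5.87 in P15, and 6.99, 6.76, 7.05 and 6.68 in P18. The 3 groups did not overlap at all. In signal, the P15 spots gave 191256 to 246071 and the P18 spots 329555 to 450413, against clipped signals of 650457 to 652190 in NP15. Against NP15, HSD3B1 was at least 2.76-fold lower in P15 on this scale (a change of -1.47 in log2, SE 0.16, adjusted p = 0.000890). That bound allows for clipping but not for the drift of its row, and after row adjustment the change was -0.68. It rose again by 0.77 from P15 to P18 (SE 0.16, adjusted p = 0.00400), which is 1.71-fold with both groups measured below saturation. In P18 it was at least 1.62-fold lower than in NP15 on this scale, with the same limit on the bound (-0.70, SE 0.16, adjusted p = 0.00687). With quantile scaling the last change was -0.31 (adjusted p = 0.0361), with normexp -0.31 (adjusted p = 0.0200) and with median centring -0.46 (adjusted p = 0.0406). The order of the groups on the main scale was thus NP15, P18 and P15, with each neighbouring pair past the threshold. The NP15 SD of HSD3B1 was 0.225, beside 0.224 for the log2 75th percentile of the same arrays. The clipped NP15 values thus bring the spread of the scaling, not that between animals, into the pooled SE and the p-values.

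The edge row of HSD3B1 moved the same way as the gene. Of the 68 other probes of row 192, 22 were called in P15 against NP15 and all 22 were lower, and 13 of the 68 lay below HSD3B1. In P18 against P15 the row median was 0.41, with 27 probes called higher and 3 lower, and HSD3B1 lay above 46 of 68. The row median in P18 against NP15 was -0.39, and 21 of the 68 lay below HSD3B1. After row adjustment the changes were -0.68 (adjusted p = 0.0853), 0.32 (adjusted p = 0.0961) and -0.36 (adjusted p = 0.0634) in P15 against NP15, P18 against P15 and P18 against NP15. With a neighbourhood of 3 rows and 10 columns on each side they were -0.93 (adjusted p = 0.00967), 0.49 (adjusted p = 0.0146) and -0.44 (adjusted p = 0.0236). Both kinds of adjustment thus left the direction and took away part of the size, and the row adjustment ended all 3 calls. The NP15 values stay clipped under either adjustment.

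**Figure D3:**
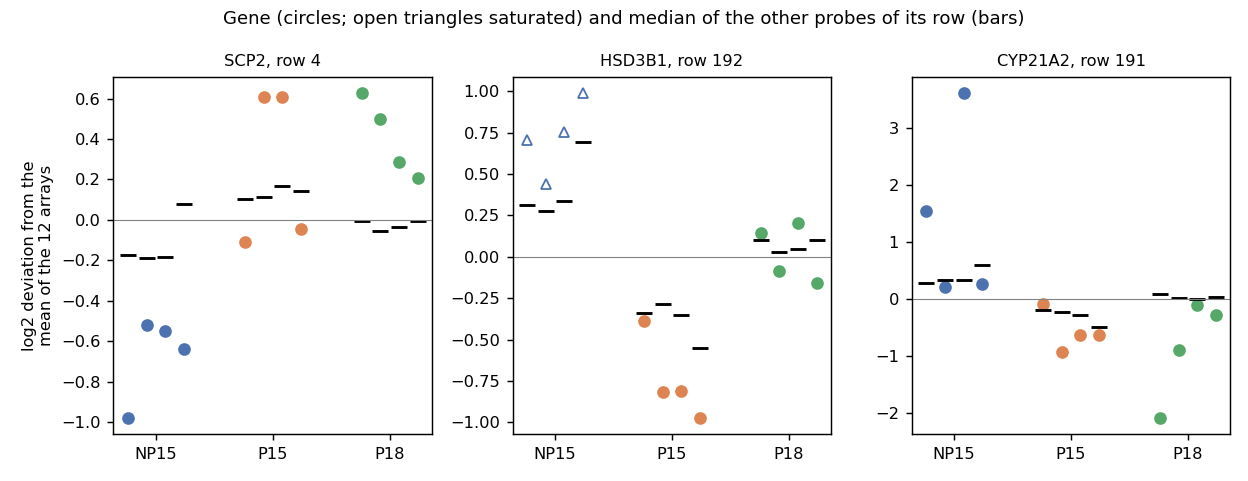
Deviation of SCP2, HSD3B1 and CYP21A2 from their mean over the 12 arrays (circles; open triangles for saturated spots) beside the median deviation of the other probes of the same row (black bars), in log2 units, by array. For HSD3B1 the row median runs from 0.69 (NP15 replicate 4) to -0.55 (P15 replicate 4), while for CYP21A2 NP15 replicate 3 stands 3.61 above the gene's mean with its row at 0.34.

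CYP21A2, which takes progesterone on to deoxycorticosterone, had the widest spread of the 6 genes in NP15 and in P18, widest among the cyclic cows. Its levels were -1.67, -2.997, 0.39 and -2.95 in NP15, -3.29, -4.13, -3.84 and -3.85 in P15, and -5.29, -4.10, -3.32 and -3.50 in P18. NP15 replicate 3 was the highest of the 12 glands, NP15 replicate 1 the next, and P18 replicate 1 the lowest. In signal the NP15 spots ranged from 370.5 to 4418, a ratio of 11.9, against 215 to 271 for P15 glands and 90.9 to 300.7 for P18 glands. The SD was 1.59 in NP15, 0.35 in P15 and 0.89 in P18. All 4 values of each pregnant group lay below all NP15 values, and the pregnant groups overlapped.

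CYP21A2 fell by 2.24 in P18 against NP15 (SE 0.69, adjusted p = 0.0299), a 4.73-fold difference. In P15 against NP15, where both groups shared a slide, the change was -1.97 (SE 0.69, adjusted p = 0.361; 95% interval -3.48 to -0.46), 3.92-fold, and was not called. P18 and P15 differed by -0.27 (adjusted p = 0.805), with an interval of -1.78 to 1.23 that leaves changes of either sign possible. The fit pools the spread of all groups, so this interval also holds that of NP15 (SD 1.59, against 0.35 in P15 and 0.89 in P18). Without NP15 replicate 3 the change of P18 against NP15 was -1.51 (adjusted p = 0.0430) and that of P15 against NP15 was -1.24 (adjusted p = 0.477). The call in P18 against NP15 was lost without NP15 replicate 1 (-2.20, adjusted p = 0.0637), without P18 replicate 1 (-1.83, adjusted p = 0.0794) or without P18 replicate 2 (-2.23, adjusted p = 0.0579).

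CYP21A2 lies in row 191, one row from the array's edge. In P18 against NP15 it lay below all 66 other probes of that row, of which the lowest changed by -2.16 and the median by -0.39, and 18 of the 66 were called, all lower. In P15 against NP15, 7 of the 66 lay below CYP21A2, and 17 were called, all lower. After row adjustment the changes were -1.89 in P18 against NP15 (adjusted p = 0.0658) and -1.29 in P15 against NP15 (adjusted p = 0.945). The medians of row 191 in the NP15 arrays deviated by 0.28 to 0.60 from their mean over the 12 arrays, against deviations of CYP21A2 of 1.54, 0.21, 3.61 and 0.26 in replicates 1 to 4. CYP21A2 stood above its row in replicates 1 and 3, and below it in replicates 2 (row 0.34) and 4 (row 0.60).

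**Figure D4:**
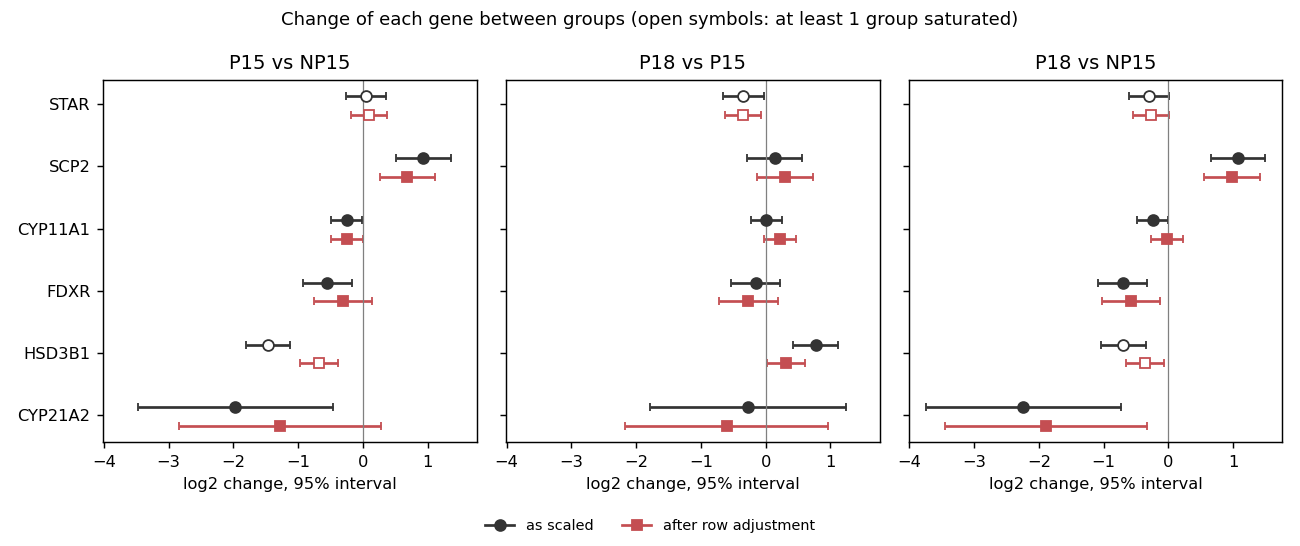
Log2 change of each gene with its 95% interval in the 3 comparisons, as scaled (black circles) and after row adjustment (red squares). Open symbols mark comparisons with a saturated group. There the size is a lower bound as far as clipping alone goes. The exception is STAR in P15 vs NP15, where both groups are saturated and the change bounds nothing. The intervals of CYP21A2 are the widest, from -3.75 to -0.74 in P18 vs NP15, and row adjustment moves HSD3B1 in P15 vs NP15 from -1.47 to -0.68.

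Markers of the adrenal cortex, where CYP21A2 is best known, were not called. Of 5 such markers 3 were on the array, CYP11B1, MC2R and CYP17A1, and limma called 0 in any comparison, with 0 at an unadjusted p under 0.05. Of all probes, 0.976% were called in P15 against NP15, 29% in P18 against P15 and 29.9% in P18 against NP15. With 3 genes, a count of 0 beside those shares says little. On NP15 replicate 3, where CYP21A2 was highest, CYP11B1 stood at -7.47, the lowest of the 4 NP15 values, which reached -5.43. That value was well above background but near the floor. Levels of -7.64 on P15 replicate 3 and -7.49 on P18 replicate 1 were not well above background. MC2R, the corticotropin receptor, stood at -6.02 on that array within an NP15 range of -6.76 to -5.80. CYP17A1, the enzyme at the branch towards androgens and cortisol, stood at -2.93 within -3.26 to -2.84. CYP11B1 was well above background on 0 of 4 P18 arrays and MC2R on 2 of 4. The mean of the 3 markers lay between -5.47 and -4.86 on NP15 arrays, between -5.52 and -4.52 on P15 arrays and between -5.50 and -4.72 on P18 arrays.

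The genes beside CYP21A2 in mammalian genomes gave 7 measured members of 9, and limma called 0 in P15 against NP15, with 0 at an unadjusted p under 0.05. Of all probes, 0.976% were called in that comparison. TNXB, whose gene overlaps the end of CYP21A2 in the human genome, changed by 0.26 (adjusted p = 0.897), and C4A, a complement component, by 0.31 (adjusted p = 0.852). In P18 against NP15 those changes were 0.24 and 0.25, neither called. Limma called 2 of 7 (28.6%) in P18 against P15 and 1 of 7 (14.3%) in P18 against NP15. The shares of all probes were 29% and 29.9%. DXO changed by -1.19 in P18 against P15 (adjusted p = 0.0507), with 4 of 4 P18 values below all P15 values, and was not called. Against NP15 its change was -0.97 (adjusted p = 0.101). ATF6B was lower in P18 against P15 (-0.63, adjusted p = 0.0233) and against NP15 (-0.54, adjusted p = 0.0422), and NELFE was higher in P18 against P15 (0.50, adjusted p = 0.0159). The ATF6B call against P15 was lost without P15 replicates 1 or 2 or P18 replicates 1 or 2, and that against NP15 held in 2 of 12 fits that left out 1 array.

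The wider pathway was read through 5 lists of 75 genes, of which 45 were measured. In P15 against NP15, 1 of 45 was called (2.22%), 6 of 45 in P18 against P15 (13.3%) and 9 of 45 in P18 against NP15 (20%), each beside the shares of all probes given above. The median changes were 0.024, -0.015 and -0.12, against -0.056, -0.027 and -0.058 over all probes tested.

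**Figure D5:**
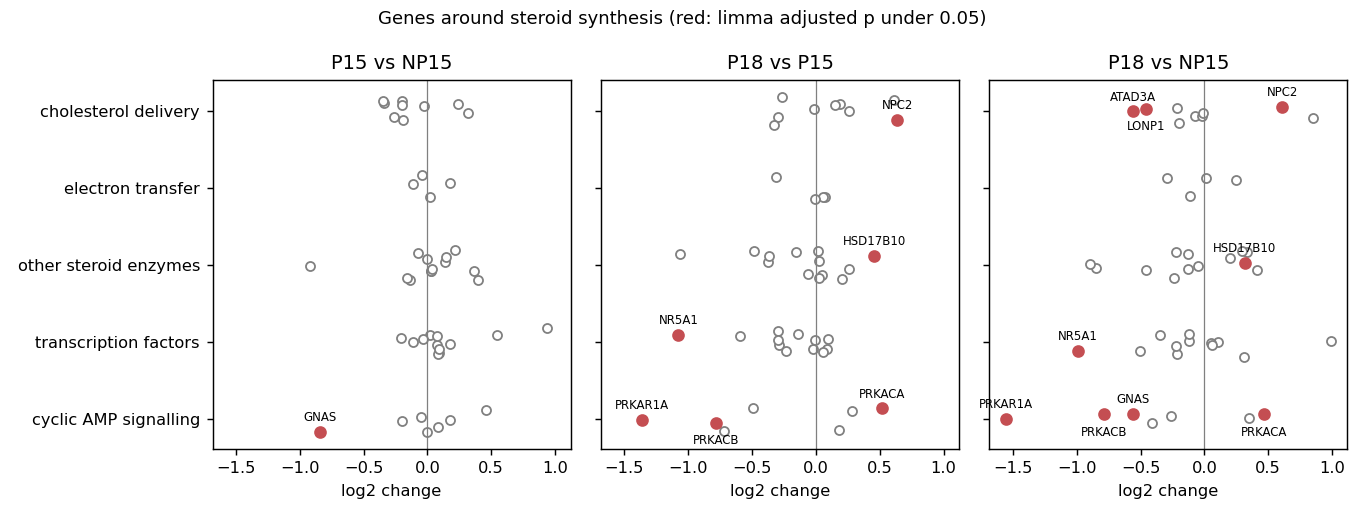
Log2 change of the 45 measured genes of 5 lists in the 3 comparisons; each circle is a gene, placed with random height within its list, and red circles passed limma's adjusted p of 0.05. GNAS is the 1 red circle in P15 vs NP15, and cyclic AMP signalling holds 3 of the 6 and 4 of the 9 in the comparisons of P18. These are 42.9% and 57.1% of its 7 genes, beside 29% and 29.9% of all probes. Both counts include PRKAR1A, which was well above background on 0 of 4 P18 arrays.

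Among the 7 measured genes of cyclic AMP signalling, through which luteinising hormone drives steroid synthesis, GNAS, the stimulatory G protein subunit, was called in P15 against NP15. It changed by -0.84 (SE 0.10, adjusted p = 0.00315), with 4 of 4 P15 values below all NP15 values. GNAS lies in row 189, near the same edge as HSD3B1 and CYP21A2, and after row adjustment its change was -0.50 (adjusted p = 0.0406). In P18 against NP15 it changed by -0.56 (adjusted p = 0.00412), with 1 marked P18 spot left out. The catalytic kinase subunits moved in opposite directions: PRKACA rose by 0.52 in P18 against P15 (adjusted p = 0.00680) and by 0.47 against NP15 (adjusted p = 0.0115). PRKACB fell by 0.78 in both (adjusted p = 0.00470 and 0.00434). Against NP15 the PRKACA call was lost with quantile scaling and the PRKACB call with cyclic loess. PRKAR1A, the regulatory subunit, passed the test as lower in P18 against P15 (adjusted p = 0.00630) and NP15 (adjusted p = 0.00285). Its probe failed to reach that mark above background on each of the 4 P18 arrays, so no fold is given. LHCGR, the receptor of luteinising hormone, changed by 0.086, -0.50 and -0.41 in P15 against NP15, P18 against P15 and P18 against NP15, and was not called.

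Of 9 measured genes of cholesterol delivery to mitochondria, 1 was called in P18 against P15 (11.1%) and 3 in P18 against NP15 (33.3%). The shares of all probes were 29% and 29.9%. NPC2, which passes cholesterol out of lysosomes, rose in P18 by 0.64 against P15 (adjusted p = 0.0148) and 0.61 against NP15 (adjusted p = 0.0178). The first call was lost with quantile scaling. The second was lost in the fit of the compared groups alone and without NP15 replicate 1 or P18 replicate 4. ATAD3A, a mitochondrial membrane ATPase, fell by 0.56 (adjusted p = 0.00695) and LONP1, the matrix protease that degrades imported STAR, fell by 0.46 (adjusted p = 0.00551) in P18 against NP15. With median centring both calls were lost. TSPO, an outer membrane protein, changed by -0.35, 0.15 and -0.20 in P15 against NP15, P18 against P15 and P18 against NP15, without a call.

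Of the 12 measured transcription factors, NR5A1, the steroidogenic factor that acts on promoters of steroid enzymes, was the 1 called, 8.33% of the list in each comparison of P18 beside 29% and 29.9% of all probes. In P18 it fell by 1.08 against P15 (adjusted p = 0.00963) and changed by -0.99 against NP15 (adjusted p = 0.0141). NR5A1 lies in row 3, and after row adjustment both calls held, at -0.96 (adjusted p = 0.0182) and -1.18 (adjusted p = 0.00635). The call against NP15 was lost with quantile, median or cyclic loess scaling. Of 13 other steroid enzymes 1 was called: HSD17B10, a mitochondrial dehydrogenase. That is 7.69% of the list in each comparison of P18, beside the same 29% and 29.9% of all probes. HSD17B10 rose in P18 by 0.46 against P15 (adjusted p = 0.00557) and 0.32 against NP15 (adjusted p = 0.0316). The second of these held in 7 of 12 fits that left out 1 array and under 9 of 14 other settings. It was lost with quantile scaling, cyclic loess, normexp, the compared groups alone and the replicate block. HSD11B2, which inactivates cortisol, changed by -0.92 in P15 against NP15 (adjusted p = 0.471). Of 4 electron transfer genes limma called 0 in any comparison, with 1 unadjusted p under 0.05 among 12 tests. The shares of all probes called were 0.976% in P15 against NP15 and 29% and 29.9% in the comparisons of P18. With 4 genes, a count of 0 beside those shares says little.

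Some markers of other cells and of luteal cells moved in P18. In the fibroblast, pericyte and smooth muscle list 4 of 7 measured genes fell in both comparisons of P18: COL1A1, COL1A2, COL3A1 and ACTA2. Of all probes, 15.6% were called lower in P18 against P15 and 18.7% in P18 against NP15. The mean of the list lay between 1.42 and 1.59 on NP15 arrays, between 1.23 and 1.65 on P15 arrays and between 0.53 and 0.85 on P18 arrays. In the endothelial list 3 of 8 (37.5%) fell in each comparison of P18 (PECAM1, CDH5 and VWF), beside the same 15.6% and 18.7%. Of these, VWF was well above background on only 3 of 4 P18 arrays, so its fall ends near the floor. The list means were -1.35 to -0.88, -1.13 to -0.96 and -1.78 to -1.55. Of the luteal list 8 of 8 were measured, and 2 (25%) were called in each comparison of P18, beside 29% and 29.9% of all probes. SCARB1, the lipoprotein receptor, changed by -1.38 in P18 against P15 and by -1.14 against NP15. PTGFR, the receptor of prostaglandin F, rose by 1.22 and 1.36. The luteal list mean was 2.13 to 2.72, 2.55 to 3.02 and 2.39 to 2.64. In P15 against NP15 limma called 0 genes of these 3 lists, with 0 at an unadjusted p under 0.05. Of 6 follicle markers limma called 0 in any comparison, with 0 at an unadjusted p under 0.05. Of all probes, 0.976% were called in P15 against NP15, 29% in P18 against P15 and 29.9% in P18 against NP15. The part of these cell markers in the changes of SCP2, FDXR, HSD3B1 and CYP21A2 was not tested.

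For each gene called at least once, the 3 probes nearest in profile over the 12 arrays were found among 5013 named probes, by the root mean square of the difference after each was centred on its own mean. For HSD3B1, whose own deviation was 0.63, they were POLR1B at 0.26, MARS1 at 0.28 and CACNA1H at 0.31, which lie in rows 180, 190 and 186 near the same edge. The 4 NP15 values of HSD3B1 are clipped, so these distances describe its recorded profile. For SCP2 (own deviation 0.54) they were DIAPH2 at 0.32, GAPDH at 0.33 and COX17 at 0.34, in rows 1, 1 and 2. For FDXR (own deviation 0.37) the nearest included MTRF1L at 0.17 and HIBCH at 0.21, in rows 142 and 143. For CYP21A2 (own deviation 1.36) the nearest, UTS2R, KIT and KRT8, were still 0.92, 0.98 and 1.05 away, in rows 178, 151 and 168.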

How the data were processed

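Spot intensities were extracted with Agilent Feature Extraction 9.5.1.1, per the file headers, and the processed signal, already background-subtracted, was used as deposited. A second deposited table of log2 values equalled the log2 processed signal minus 1 constant per array, within 1.79e-06. The constant minus the log2 75th percentile was at lowest -0.0142. No genome build was used here. Here each array was scaled to its 75th percentile over 15208 probes, without the 536 controls, and log2 transformed, and spots with a non-uniformity or population outlier mark were treated as missing (none of the 6 genes). Probes well above background on at least 3 of 4 arrays of a group were kept. Symbols came from RefSeq (ARS-UCD2.0) for 6945 probes. The test was limma 3.58.1 (R 4.3.3), lmFit and eBayes on all 12 arrays with group means, two-sided, Benjamini-Hochberg adjusted over 12605 probes. The pipeline was tested on simulated data that held no saturation, drift along array rows or slide difference, so that test does not bear on these. The number of arrays limits the precision. P-values rest on 4 animals a group. The alternatives were 14 other settings and leaving out each of the 12 arrays. Saturation gives bounds as stated in the text. The text names each probe of the 6 genes; of each pathway list the genes called, at most 4 per comparison, plus FDX1; and the 3 probes nearest in profile, of which 1 is not reported here, nor is 1 probe sequence. LHCGR, TSPO and HSD11B2 were added after their values were seen. The 6 genes and the lists were chosen with earlier results of these data known. Of all probes, 0.976% were called in P15 against NP15 and 29% and 29.9% in the comparisons of P18. Lists for macrophages, T, B and red blood cells had 0 limma calls in P15 against NP15 (2 genes at an unadjusted p under 0.05) and 1 gene each (CD68, CD2, MS4A1 and ALAS2) called, higher, in at least 1 comparison of P18. MS4A1 was well above background on 0 of 4 P18 and 1 of 4 P15 arrays there, so its direction is not read.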

Additional observations from a re-analysis of the deposited data

How the results depend on the processing

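HSD3B1 kept its direction in all 3 comparisons under the 14 other settings and the 12 fits that left out 1 array, and its calls were lost only with row adjustment. SCP2 in P18 against NP15 stayed called throughout, with changes of 0.63 to 1.36. CYP21A2 in P18 against NP15 ranged from -2.67 to -1.73 and was called under 10 of 14 settings (adjusted p 0.0115 to 0.0714). It was lost with cyclic loess (-1.93), row or local position adjustment and the fit of the compared groups alone. FDXR there was called under 11 of 14, and lost with median centring, row and local adjustment (-0.42). For none of these was the cause tested.

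The number of the 6 genes called in P15 against NP15, 1 as reported, was 2 with cyclic loess, with probes well above background on all 12 arrays and with array weights, and 0 with row adjustment. It was 1 to 2 when arrays were left out in turn. In P18 against P15, 1 as reported, it was 2 with cyclic loess and 0 with row adjustment. In P18 against NP15, 4 as reported, it was 2 with local and 1 with row adjustment, and 3 to 4 when arrays were left out. With cyclic loess STAR and CYP11A1 joined the genes called there, and CYP21A2 left them. Median centring lost FDXR there, and the fit of the compared groups alone lost CYP21A2. Pathway genes called in P18 against P15, 6 as reported, were 12 with median centring, 10 with array weights and 6 to 11 when arrays were left out, the highest without NP15 replicate 4.

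STAR turned to 0.022 (P18 against P15) and 0.043 (P18 against NP15) with quantile scaling, and to 0.022 and 0.083 with normexp; its spot ranked 1 to 4 on every array, where quantile scaling sets the value. In P15 against NP15, where both groups are clipped, its change ran from -0.055 to 0.14 when arrays were left out. CYP11A1 in P18 against P15 turned to -0.17 with cyclic loess, and ran from -0.037 to 0.063 when arrays were left out. FDXR in P18 against P15 turned to 0.070 with median centring. CYP21A2 there turned to 0.000547 with normexp, and ran from -0.52 to 0.14 when arrays were left out.

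Over all probes, 123 were called in P15 against NP15; 214 with array weights, 65 with the compared groups alone, 47 with local and 40 with row adjustment, and 67 to 121 when arrays were left out. The share of these calls that were higher, 40.7%, was 52.7% with normexp, 54.7% with probes above background on all arrays, 63.8% with local and 72.5% with row adjustment. In P18 against P15 and NP15 it was 46.4% and 37.4%; median centring gave 73.2% and 68.2%, and no filter on dim probes gave 63.2% and 56.8%, with 5498 calls in P18 against P15 in place of 3659. Local and row adjustment gave 48.6% and 49.3% in P18 against NP15.

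Replicate numbers equal the position on a slide. The mean of its group was first subtracted from each probe, and the deviations left on same-numbered arrays were correlated over probes. These correlations ran from 0.0965 to 0.293 in P15 against NP15 and from -0.029 to 0.147 in P18 against P15. In P18 against NP15 they ran from -0.039 to 0.174. Not every pair exceeded 0.1 in any comparison, so the number was not taken as a pairing of animals. In P15 against NP15 all 4 were above 0. By these deviations, arrays correlated best with their own number in 3, 1 and 2 of 4 cases. With the replicate number as a block, 1, 1 and 4 of the 6 genes were called and 75 probes in P15 against NP15.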
